A study of Mus musculus with 6 samples.

Results

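The genes of the epidermal differentiation complex and the S100a genes beside them were compared between HFSCs (hair follicle stem cells) labelled WT and Dab2-cKO. Members were taken by gene name: every gene whose name begins with Lce or Sprr and a number, every gene named S100a and a number alone (S100a7a, with its last letter, was not a member), together with Flg, Flg2, Hrnr, Rptn, Crnn, Tchh, Tchhl1, Ivl, Lor, Kprp, Lelp1 and Smcp. These were 63 of the 56941 genes counted. They comprised 7 genes of fused-type S100 proteins, 21 Lce genes, 17 Sprr genes, 13 S100a genes and the 5 genes Ivl, Lor, Kprp, Lelp1 and Smcp. All 63 lay on chromosome 3 of GRCm39, from 90416091 to 93474510, a stretch of 3.06 Mb. Of these, 49 had enough counts for edgeR's expression filter, as had 32149 of all genes. The 14 members that did not pass were 10 of the 13 Sprr2 genes, Lce3b, Lce3d, Lce3f and Lelp1.

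The complex encodes most of the building blocks of the cornified envelope, the cross-linked protein shell that replaces the plasma membrane of dying keratinocytes at the skin surface. Loricrin, involucrin, the small proline-rich proteins and the late cornified envelope proteins are joined to each other by transglutaminases, and the fused-type S100 proteins, filaggrin among them, bind keratin filaments or the envelope. Trichohyalin fills the same place in the inner root sheath and medulla of the hair follicle. The S100a genes at both ends of the complex encode small calcium-binding proteins with EF hands, which act inside many cell types and, in part, as signals outside them.

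The libraries came from total RNA of FACS sorted CD34+/α6-integrin+ cells from dorsal skin of female mice at postnatal day 68, an age the study assigns to the second telogen, the resting phase of the hair cycle, in both genotypes. There were 3 biological replicates per genotype. Both groups were Dab2fl/fl on the strain B6;129S4-Dab2tm1Cpr/J and received tamoxifen at 75 mg/kg for 5 days, WT mice lacking the K14CreER transgene (K14CreER-/-) and Dab2-cKO mice carrying it (K14CreER+/-). Cre was thus driven by the K14 promoter, which is active in basal keratinocytes. The count table names the second group FL-FL, which the series title equates with Dab2-cKO, and every direction below depends on that assignment. The targeted gene went against its label: Dab2 had 304, 368 and 362 counts (WT) against 1504, 1130 and 1259 (Dab2-cKO). The log2 fold change of Dab2 was 2.08 (SE 0.08, adjusted p = 3.04e-34 by edgeR), so groups are named here as the libraries were labelled. Of markers of proliferating and bulge cells, Mki67 had a log2 fold change of -2.12, Cd34 of 1.80, Krt15 of 0.84, Nfatc1 of 1.32 and Sox9 of -1.45, all called. These were named after their values were seen, and whether the labels were exchanged was not tested. The part of cells other than keratinocytes in the Dab2 counts was not tested either. Markers of such cells, fibroblasts among them, differed between the groups, as given below.

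Per library, values are given for replicates 1, 2 and 3 of a group, and SE stands for the standard error. It was derived as the absolute log2 fold change divided by the square root of edgeR's quasi-likelihood F statistic. The libraries held 7040032 to 11696457 counts. Bulge markers were present in all of them, with a mean normalized count of Cd34 of 510 (WT) and 1780 (Dab2-cKO). Of 17 bulge markers, 9 were called higher and 5 lower in the Dab2-cKO libraries, so Cd34 does not stand for the list. Which cells these counts came from was not tested. Markers of cells outside the gate were present as well and differed between the groups. The summed normalized count of 10 fibroblast markers ranged from 104552 to 126555 (WT) and from 365364 to 384854 (Dab2-cKO). Most of these sums came from Col1a1, Col3a1 and Col1a2, with Dab2-cKO means of 135934, 132958 and 83394. For 26 markers of the inner root sheath, cuticle and hair shaft the sums were 119695 to 140666 (WT) and 3121 to 3217 (Dab2-cKO). No marker of these lists was at 0 in a group. In such bulk samples, fewer cells of a type and less RNA per cell cannot be told apart.

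Members changed in both directions. Of the 49 tested, 23 were higher in the libraries labelled Dab2-cKO and 14 were lower at an adjusted p under 0.05 by edgeR's quasi-likelihood test, that is 75.5% against 28.2% of all genes tested. Among all genes, 16.8% were called higher and 11.5% lower. Scaling by library size alone moved the median log2 fold change of all genes from -0.02 to -0.45, and the share of calls that were higher from 59.4% to 19.4%, with 43.5% under upper-quartile scaling. For the members that share was 62.2% and, by library size alone, 57.9%. All 23 of the higher members and 13 of the lower ones had changed by more than 1.5-fold, which 11.6% and 7.19% of all genes had in those directions. The libraries of the groups did not overlap for 38 of the 49 members, against 38.3% of all genes tested. The median log2 fold change of the tested members was 0.85, that of all genes -0.02.

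The direction followed the subfamily in part. All 14 Lce1 genes rose and no Lce gene fell, while 4 of the 7 tested Sprr genes fell and none rose. The fused-type S100 genes split into 3 that rose and 4 that fell, and the S100a genes into 4 that rose and 5 that fell. Of the remaining members, Lor and Kprp rose and Ivl fell.

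The fused-type S100 genes carried both the largest rise and the largest fall of all members. Hrnr (ENSMUSG00000041991, chromosome 3 from 93227056 to 93240877, plus strand) encodes hornerin, a filaggrin relative of the cornified layer. Its normalized counts, which are counts scaled to a common effective library size, were 651, 778 and 781 among WT libraries against 4017, 4156 and 4176 among Dab2-cKO libraries. Every library labelled Dab2-cKO was thus above every WT library, and the means were 737 ± 74.0 (SD, n = 3) and 4116 ± 87.0 (SD, n = 3). The log2 fold change was 2.48 (SE 0.08, adjusted p = 4.63e-40 by edgeR), a 5.58-fold rise. Flg2, which encodes filaggrin-2, had 5312, 6330 and 6058 normalized counts (WT) against 15695, 16745 and 15972 (Dab2-cKO), a log2 fold change of 1.45 (SE 0.07, adjusted p = 6.68e-29 by edgeR). Flg, the filaggrin gene, had 1584, 1731 and 1656 against 2920, 3045 and 3020, a smaller rise of 0.85 (SE 0.07, adjusted p = 2.80e-17 by edgeR). These proteins consist of long repeats, and of the 150-base windows in their exons 67.4% for Hrnr, 46.6% for Flg2 and 48.4% for Flg occurred elsewhere in the genome, in the same gene or another. How reads with several positions were counted is not given in the sources used here, so the levels of these 3 genes are uncertain.

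The 4 fused-type S100 genes that fell did so by very different amounts. Tchh (ENSMUSG00000052415, chromosome 3 from 93349637 to 93356384, plus strand), the trichohyalin gene, had 146773, 178754 and 161284 normalized counts (WT) against 1510, 1510 and 1533 (Dab2-cKO). No other member came near the WT value, and its log2 fold change of -6.74 (SE 0.09, adjusted p = 8.54e-63 by edgeR), a 107-fold fall, was the lowest of any member. Tchhl1, the neighbouring trichohyalin-like gene, fell from 3213 ± 310 to 69.8 ± 4.55 (SD, n = 3 each), with 3001, 3569 and 3070 (WT) against 67.7, 66.7 and 75.1 (Dab2-cKO) by library. Crnn, which encodes cornulin, a protein of squamous epithelia, had 2697, 3229 and 2797 against 55.3, 47.2 and 49.7. The log2 fold changes of Tchhl1 and Crnn were -5.52 and -5.83, with an SE of 0.10 for each. Rptn, the gene of repetin, had 254, 257 and 250 against 130, 155 and 141, a log2 fold change of -0.84 (SE 0.13, adjusted p = 5.73e-08 by edgeR). In all 4 genes the lowest WT library was above the highest Dab2-cKO library. Of the exon bases of Tchh, 25.1% overlap genes annotated on the opposite strand, and whether counting used strand is not given in the sources used here.

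The start regions of genes that moved in opposite directions are shown beside each other here and further on, since neighbours in the complex parted ways. Each line gives the 250 bases before the gene's start, from 5′ to 3′ on the gene's strand. Sequences are those of RefSeq (GRCm38.p6), each found once and without mismatch at the GRCm39 coordinates given. Capitals mark matches, on either strand, to TATAAA for the TATA box, TGANTCA for the AP-1 motif, AGATAA for a GATA motif, and CTTTGAT as well as CTTTGAA for TCF/LEF motifs. For Hrnr the window was chr3:93226806-93227055 on the plus strand, for Crnn chr3:93051846-93052095 on the plus strand and for Tchhl1 chr3:93375811-93376060 on the plus strand.
Hrnr: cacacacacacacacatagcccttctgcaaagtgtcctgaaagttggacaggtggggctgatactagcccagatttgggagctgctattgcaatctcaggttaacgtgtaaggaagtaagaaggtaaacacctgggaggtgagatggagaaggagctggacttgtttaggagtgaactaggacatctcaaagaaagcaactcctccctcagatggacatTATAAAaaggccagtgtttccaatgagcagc
Crnn: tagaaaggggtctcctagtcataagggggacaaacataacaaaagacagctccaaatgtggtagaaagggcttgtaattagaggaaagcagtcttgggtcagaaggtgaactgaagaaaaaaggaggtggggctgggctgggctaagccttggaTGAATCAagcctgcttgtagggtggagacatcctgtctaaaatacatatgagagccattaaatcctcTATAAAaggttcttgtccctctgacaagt
Tchhl1: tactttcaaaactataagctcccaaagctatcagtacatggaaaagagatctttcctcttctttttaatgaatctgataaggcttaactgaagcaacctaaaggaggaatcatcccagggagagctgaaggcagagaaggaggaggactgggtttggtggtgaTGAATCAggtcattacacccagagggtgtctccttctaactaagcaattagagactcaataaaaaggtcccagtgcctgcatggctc
Hrnr, which rose, and Crnn, which fell, both had a TATA box, 31 and 29 bases before the start. The AP-1 motif was found in Crnn, 96 bases before the start, and in Tchhl1, 87 bases before it, and no match to it was found in the window of Hrnr. Among fused-type S100 genes not printed here, RefSeq windows of Flg and Flg2, which rose, and of Rptn, which fell, held it too. That of Tchh, which fell, held no match. The motif was thus found in fused-type genes of both directions, and a difference between the directions was not tested. Over the whole 300 bases of the RefSeq windows, which also hold the first 50 bases of the transcript, Hrnr and Crnn were 48.4% identical in a global alignment and Hrnr and Tchhl1 53.8%. The median over the 21 pairs of the 7 fused-type S100 genes was 48.5%.

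**Figure D1:**
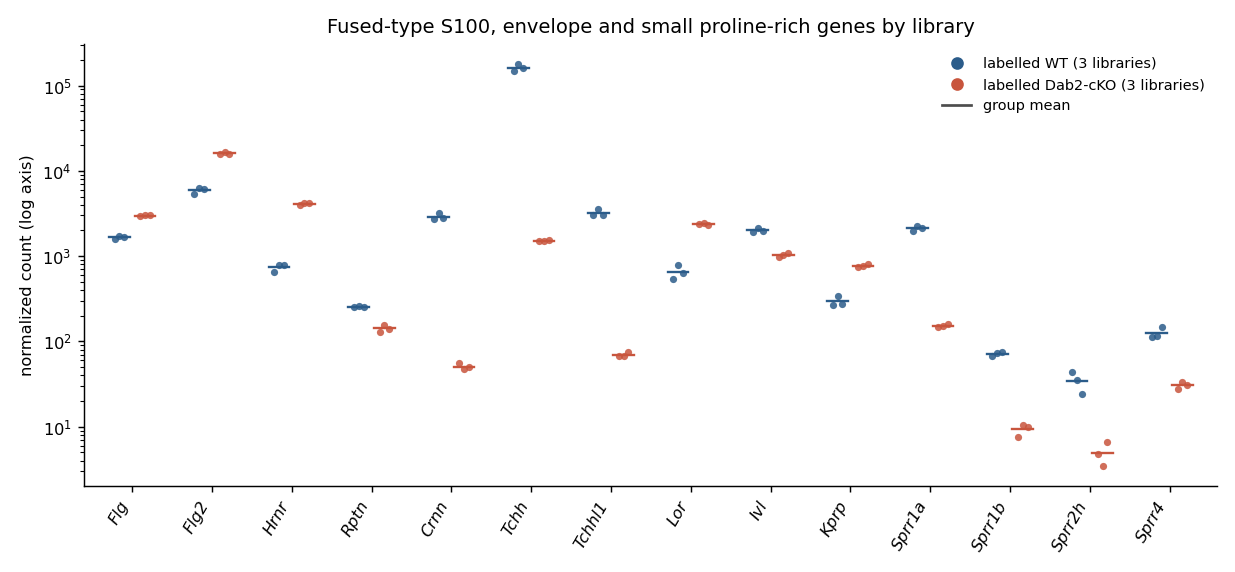
Normalized counts (log axis) of the fused-type S100 genes, Lor, Ivl, Kprp and the Sprr genes that fell, with 1 point per library and a line at the mean of each group of 3. Flg, Flg2, Hrnr, Lor and Kprp sit higher in the libraries labelled Dab2-cKO, and Tchh drops from 162270 to 1517 on average.

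Among the envelope proteins outside the gene families, Lor and Ivl moved in opposite directions. Lor (ENSMUSG00000043165, chromosome 3 from 91987578 to 91990449, minus strand), which encodes loricrin, the main protein of the mature envelope by mass, had 537, 782 and 640 normalized counts (WT) against 2400, 2442 and 2351 (Dab2-cKO). Its mean rose from 653 ± 123 to 2398 ± 45.5 (SD, n = 3 each), a log2 fold change of 1.87 (SE 0.08, adjusted p = 7.15e-30 by edgeR). Ivl encodes involucrin, which is laid down early in envelope assembly, and had 1905, 2168 and 1973 against 991, 1026 and 1089. Its log2 fold change was -0.96 (SE 0.07, adjusted p = 4.70e-19 by edgeR), so that the WT libraries were all above the Dab2-cKO libraries for Ivl and all below them for Lor. Kprp, the gene of keratinocyte proline-rich protein, rose from 294 ± 39.2 to 777 ± 36.8 (SD, n = 3 each), a log2 fold change of 1.40 with an SE of 0.09. Smcp, a gene of the sperm mitochondrial capsule that lies within the complex, had 11 to 15 counts (WT) against 6 to 9 (Dab2-cKO) and was not called (adjusted p = 0.457 by edgeR). Lelp1 was not tested, with at most 7 counts in any library. The window before Lor, chr3:91990450-91990699 on the minus strand, held a TATA box 27 bases and an AP-1 motif 48 bases before the start.
Lor: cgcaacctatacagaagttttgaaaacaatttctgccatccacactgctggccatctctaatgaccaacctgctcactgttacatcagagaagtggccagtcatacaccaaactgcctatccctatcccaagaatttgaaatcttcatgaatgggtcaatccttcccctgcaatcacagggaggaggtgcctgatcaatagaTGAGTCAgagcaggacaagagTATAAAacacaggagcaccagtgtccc

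The Lce1 genes all moved one way. Lce genes encode short proteins rich in cysteine, serine and glycine that are added late to the envelope. All 14 Lce1 genes were higher in the libraries labelled Dab2-cKO, with log2 fold changes between 1.02 for Lce1l and 2.24 for Lce1j, a median of 1.63 and edgeR's adjusted p between 3.51e-25 and 0.00193. For each of the 14, all Dab2-cKO libraries were above all WT libraries. The most abundant, Lce1m, had 352, 403 and 413 normalized counts (WT) against 1059, 1031 and 1062 (Dab2-cKO). Its mean rose from 389 ± 32.6 to 1051 ± 17.1 (SD, n = 3 each), a log2 fold change of 1.43 with an SE of 0.08. Lce1m also stands apart in place, beyond the Lce3 genes and next to Crnn. Lce1c followed with 94.6, 91.2 and 97.4 against 324, 304 and 334, a log2 fold change of 1.76 (SE 0.13, adjusted p = 1.10e-19 by edgeR). Lce1j had 18.9, 19.0 and 18.8 against 98.2, 80.5 and 89.4, the largest ratio of the family at 4.72-fold.

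The other Lce1 genes had log2 fold changes from 1.02 for Lce1l (SE 0.25) to 1.91 for Lce1i. Lce1a1 had 92.4, 73.1 and 31.6 normalized counts in the libraries labelled WT, a wide spread, and 195, 206 and 204 in those labelled Dab2-cKO. Lce1a2 had 53.4, 52.4 and 72.6 against 185, 179 and 195. Lce1i had 32.3, 63.2 and 51.3 against 176, 154 and 231. The log2 fold changes of these 3 genes, at 1.65, 1.64 and 1.91, had SEs of 0.21, 0.16 and 0.18 and so did not stand apart from each other. Lce1d had 35.6, 54.2 and 33.3 against 154, 127 and 129, and Lce1e 32.3, 45.1 and 31.6 against 82.0, 119 and 124. Lce1b had 28.9, 43.3 and 37.6 against 123, 119 and 92.7, with 85.3% of its exon bases overlapped by a gene on the opposite strand. The remaining Lce1 genes, Lce1f, Lce1g, Lce1h, Lce1k and Lce1l, had means of 14.7 to 35.3 (WT) against 36.9 to 87.2 (Dab2-cKO). No 150-base window of an Lce1 gene occurred elsewhere in the genome. Added up, the 14 genes had 911 ± 63.3 (WT) and 2722 ± 72.3 (Dab2-cKO) normalized counts (SD, n = 3 each), a ratio of 2.99.

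The Lce3 genes and Lce6a were not called. Lce3 genes are known for their induction in damaged or inflamed epidermis. Only Lce3a, Lce3c and Lce3e of the 6 Lce3 genes had enough counts to be tested, with log2 fold changes of -0.48, -0.46 and -0.47 and SEs of 0.53 to 0.56, and none passed the threshold. No Lce3 gene had more than 17 counts in a library. Lce6a had 45, 47 and 14 counts against 52, 46 and 48, so the groups overlapped, with a log2 fold change of 0.60 (SE 0.29, adjusted p = 0.130 by edgeR). Without WT replicate 1 it was called higher (adjusted p = 0.0231 by edgeR). The difference in response between the Lce1 and the Lce3 genes was not tested.

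The windows before Lce1c (chr3:92586304-92586553, plus strand) and Lce1j (chr3:92697822-92698071, minus strand) are shown because these genes, like the rest of Lce1, moved together.
Lce1c: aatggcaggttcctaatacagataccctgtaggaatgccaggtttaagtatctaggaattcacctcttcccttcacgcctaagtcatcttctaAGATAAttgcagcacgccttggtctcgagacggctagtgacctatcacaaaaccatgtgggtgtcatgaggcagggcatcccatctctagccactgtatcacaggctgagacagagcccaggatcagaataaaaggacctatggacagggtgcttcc
Lce1j: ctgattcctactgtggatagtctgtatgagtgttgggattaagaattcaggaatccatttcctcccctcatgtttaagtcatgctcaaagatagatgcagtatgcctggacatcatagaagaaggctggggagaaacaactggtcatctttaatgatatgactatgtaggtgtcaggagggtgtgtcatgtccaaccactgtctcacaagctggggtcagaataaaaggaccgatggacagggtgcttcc
The RefSeq windows of this pair were 67.6% identical over 300 bases. Among the 13 Lce1 genes with a window the 78 pairs had a median identity of 63.6%, from 47.6% to 86.0% for Lce1g and Lce1i. The 78 pairs of a Lce1 with a Lce3 gene had a median of 48.8%. Pairs within Lce3, where no gene was called, had a median of 57.5%. Pairs within Sprr2, where 1 gene was called and most were not tested, had a median of 60.7%. Whether identity of the windows goes with a shared direction was not tested. No AP-1 or TCF/LEF motif of the letters searched was found in the windows of the 13 Lce1 genes, and a TATA box in the letters TATAAA was found in 2 of them.

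**Figure D2:**
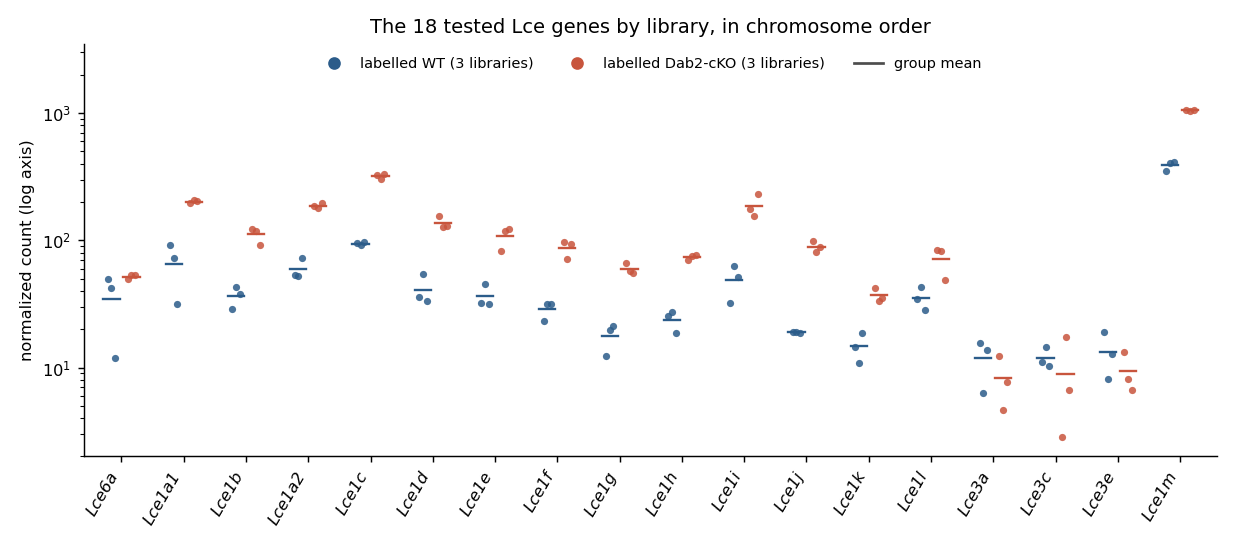
Normalized counts (log axis) of the 18 tested Lce genes in chromosome order, 1 point per library, with a line at each group mean. The 14 Lce1 genes are higher in all libraries labelled Dab2-cKO, while Lce6a and the Lce3 genes overlap between the groups.

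The Sprr genes fell where they changed. Their products are small proline-rich proteins that act as cross-bridges in the envelope, and Sprr1a and Sprr1b are induced in stressed and wounded keratinocytes. Sprr1a (ENSMUSG00000050359, chromosome 3 from 92390424 to 92393208, minus strand) had 1974, 2281 and 2123 normalized counts (WT) against 149, 152 and 160 (Dab2-cKO). Its mean fell from 2126 ± 154 to 154 ± 5.82 (SD, n = 3 each), 13.9-fold, with a log2 fold change of -3.79 (SE 0.09, adjusted p = 1.39e-47 by edgeR). Sprr1b had 66.8, 74.0 and 75.2 against 7.63, 10.4 and 9.93, and Sprr4 had 114, 116 and 146 against 27.7, 33.4 and 30.9. Their log2 fold changes were -2.95 (SE 0.31) and -2.04 (SE 0.21), and the groups did not overlap for either gene. Sprr2h was the only one of 13 Sprr2 genes that was called, with 43.4, 35.2 and 23.9 against 4.77, 3.45 and 6.62, a log2 fold change of -2.74 (SE 0.46, adjusted p = 9.32e-07 by edgeR). Its Dab2-cKO libraries held 3 to 6 counts each.

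The other Sprr genes were near the limit of detection. Sprr3 had 14.5, 14.4 and 17.1 normalized counts against 12.4, 15.0 and 7.73 and was not called (adjusted p = 0.628 by edgeR). Sprr2d had 10, 1 and 1 counts (WT) against 4, 14 and 11 (Dab2-cKO), and Sprr2f had 6, 12 and 4 against 16, 5 and 13. Neither was called in the full comparison, and without WT replicate 1 Sprr2d was called higher, with a log2 fold change of 3.42 (adjusted p = 0.0147 by edgeR). The 10 untested Sprr2 genes had at most 12 counts in any library, and Sprr2a1 and Sprr2a2 shared 93.5% and 93.2% of their exon windows with other places in the genome.

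The windows before Sprr1a (chr3:92393189-92393438, minus strand) and Sprr1b (chr3:92346087-92346336, minus strand) are given for the pair with the largest falls of the family.
Sprr1a: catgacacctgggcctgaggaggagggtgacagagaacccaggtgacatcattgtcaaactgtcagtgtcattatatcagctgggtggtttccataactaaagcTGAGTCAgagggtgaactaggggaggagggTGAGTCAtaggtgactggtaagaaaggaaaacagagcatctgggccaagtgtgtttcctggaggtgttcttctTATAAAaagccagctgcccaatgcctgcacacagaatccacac
Sprr1b: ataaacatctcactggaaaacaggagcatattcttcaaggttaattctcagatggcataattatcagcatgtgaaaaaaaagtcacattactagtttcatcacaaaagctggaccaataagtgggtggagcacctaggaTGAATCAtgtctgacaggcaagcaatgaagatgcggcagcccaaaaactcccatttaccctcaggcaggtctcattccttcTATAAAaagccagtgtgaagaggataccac
Sprr1a held 2 AP-1 motifs, 146 and 116 bases before the start, and Sprr1b held 1, 111 bases before it. Both had a TATA box, 43 bases and 30 bases before the start. Of the 63 members, 55 had RefSeq windows, 59 windows in all. A member was counted where any of its windows held the motif, while the shares of all mouse windows are per window. The AP-1 motif was found in 8 of the 13 lower members with a window (Crnn, Ivl, Rptn, S100a16, Sprr1a, Sprr1b, Sprr2h and Tchhl1), in 4 of the 20 higher members (Flg, Flg2, Lor and S100a11) and in 7.81% of 32851 mouse windows of the same length. TATAAA was found in 8 of the 13 lower members, 6 of the 20 higher members and 13.6% of all windows. Of the 20 higher members 13 were Lce1 genes, of which 2 held TATAAA and 0 held the AP-1 motif. The 4 higher members with the AP-1 motif thus all lay outside Lce1. These counts therefore rest largely on 1 family, and a difference between the directions was not tested. AGATAA was found in 1 lower (Tchh) and 5 higher members against 11.2% of all windows. CTTTGAT was found in 1 lower and 1 higher member against 3.73%, and CTTTGAA in 1 lower (Tchh) and no higher member against 5.14%. The RefSeq start of Tchh lies at the start of its coding sequence, so its window was counted here but not printed. Among the member windows, 1 match overlapped a match to another motif. Members of a family share ancestry, and a match of letters does not show that a factor binds.

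The S100a genes moved in both directions. S100a3 (ENSMUSG00000001021, chromosome 3 from 90491966 to 90510009, plus strand), whose product is a calcium-binding protein of the hair cuticle, had 1277, 1478 and 1306 normalized counts (WT) against 12.4, 27.6 and 23.2 (Dab2-cKO). Its log2 fold change was -6.03 (SE 0.13, adjusted p = 4.10e-49 by edgeR), a 65.4-fold fall. Per kb of exon it had 7.89 normalized counts in the Dab2-cKO libraries, below the 95th percentile of chemosensory receptor genes there (13.1), so the size of this fold and its rank beside Crnn and Tchhl1 are uncertain. S100a14 and S100a16, genes of epithelial S100 proteins, had smaller falls. S100a14 had 969, 1235 and 1131 against 714, 759 and 667, and S100a16 had 617, 818 and 857 against 450, 410 and 423. Their log2 fold changes were -0.64 (SE 0.08) and -0.84 (SE 0.09), with no overlap of the groups. S100a6, the calcyclin gene, had 1168, 1454 and 1277 against 1060, 1093 and 1037, a small fall with a log2 fold change of -0.29 (SE 0.07, adjusted p = 0.00119 by edgeR).

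S100a10 and S100a11, which lie at the other end of the complex from most S100a genes, rose. S100a10, whose product binds annexin A2, had 855, 1008 and 904 normalized counts (WT) against 1780, 1919 and 1790 (Dab2-cKO), a log2 fold change of 0.99 (SE 0.07, adjusted p = 2.09e-19 by edgeR). S100a11, also an annexin partner and a component of envelopes, had 248, 310 and 275 against 756, 793 and 716, a log2 fold change of 1.44 (SE 0.09, adjusted p = 1.28e-22 by edgeR). S100a13, which takes part in the release of proteins without a signal peptide, had 151, 184 and 178 against 349, 341 and 425, a log2 fold change of 1.11 with an SE of 0.12. For these 3 genes too, every Dab2-cKO library was above every WT library. S100a1 lies opposite S100a13, and 57.5% of the exon bases of S100a13 and 89.2% of those of S100a1 overlap a gene on the other strand. S100a1 had 223, 301 and 274 against 246, 273 and 248 and was not called (adjusted p = 0.763 by edgeR).

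S100a8 and S100a9, whose products pair as calprotectin, were both low and moved in opposite directions. S100a8 had 36, 48 and 47 counts (WT) against 20, 14 and 19 (Dab2-cKO), with a log2 fold change of -1.13 (SE 0.32, adjusted p = 0.00334 by edgeR). S100a9 had 21, 16 and 16 against 36, 24 and 41, with a log2 fold change of 1.08 (SE 0.35, adjusted p = 0.0130 by edgeR). The S100a9 call was lost without WT replicate 2 (log2 fold change 0.98), WT replicate 3 (0.94) or Dab2-cKO replicate 3 (0.85), with adjusted p-values by edgeR of 0.0586, 0.0715 and 0.129, and by library size alone (0.64, adjusted p = 0.140 by edgeR). Among neutrophil markers, 12 of 14 were tested, 3 of them (Il1r2, Mmp9 and Csf3r) rose and none fell. That is 25% called, below the 28.2% of all genes tested, and the median log2 fold change of the list was -0.04. The granule genes Mpo and Ltf were not called, with log2 fold changes of 0.30 and -0.14, nor were Ly6g (-0.66) and Camp (-0.12). The summed level of the list was 513 to 570 (WT) and 766 to 779 (Dab2-cKO), with means of 130 and 281 for Il1r2 alone. The part of such cells in the S100a8 and S100a9 values was not tested.

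The remaining S100a genes were low and were not called. S100a2 had means of 41.3 ± 11.2 and 41.5 ± 9.21, S100a4 of 8.31 ± 3.77 and 15.8 ± 3.59, and S100a5 of 22.2 ± 12.6 and 14.0 ± 2.98 normalized counts (SD, n = 3 each, WT before Dab2-cKO). Of the exon bases of S100a4, 33.3% overlap another gene on the same strand. By library size alone, S100a1 (-0.49, adjusted p = 0.000147 by edgeR) and S100a5 (-1.08, adjusted p = 0.0397 by edgeR) were called lower.

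**Figure D3:**
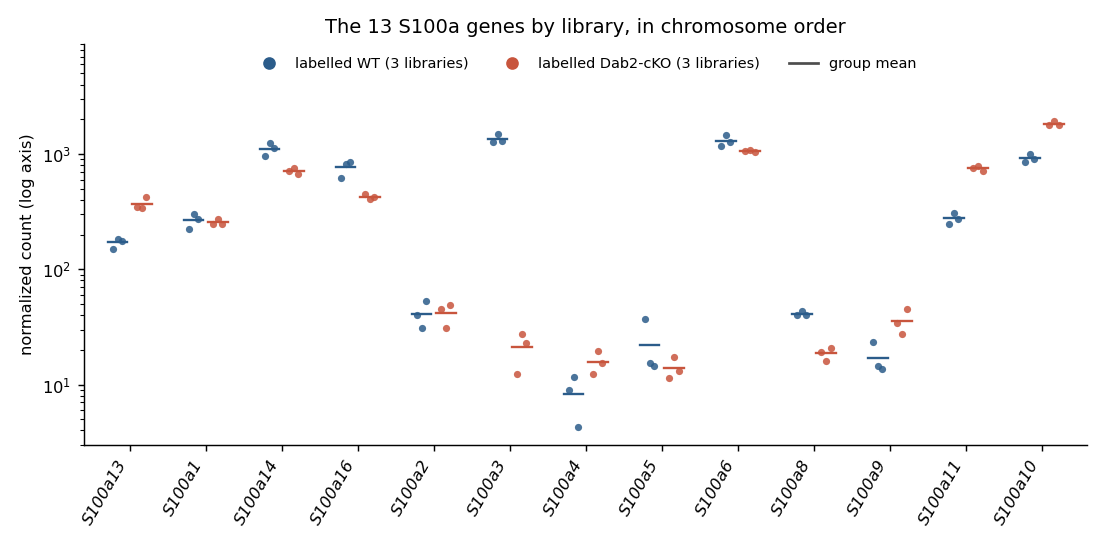
Normalized counts (log axis) of the 13 S100a genes in chromosome order, 1 point per library, with a line at each group mean. S100a3 falls from 1354 to 21.1 on average, while S100a10, S100a11 and S100a13 are higher in the libraries labelled Dab2-cKO.

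To compare levels between genes, normalized counts were divided by the exon length. On this scale of normalized counts per kb of exon, the order of the members changed between the groups. In the libraries labelled WT the highest were Tchh (27867), Crnn (1559), Tchhl1 (1554), Sprr1a (1291) and Ivl (1048), and Tchh alone made up 72.3% of the members' summed level per kb. In the libraries labelled Dab2-cKO the highest were Lor (1221), Lce1m (1107), Flg2 (776), Ivl (539) and S100a6 (452). Tchh ranked 14 there with 261, and Crnn ranked 36 with 27.2. Reads also fell on chemosensory receptor genes, which skin is not known to use, and the 95th percentile of 1970 of these was 14.4 per kb in the WT and 13.1 in the Dab2-cKO libraries. Of the 63 members, 43 were above it in the WT libraries, 45 in the Dab2-cKO libraries, 39 in both and 14 in neither. S100a3, Sprr1b, Sprr2h and Lce3d were above it in the WT libraries and not in the Dab2-cKO libraries, where they had 7.89, 11.2, 6.58 and 7.09 per kb. S100a9, S100a4, Sprr2c-ps, Sprr2d, Sprr2f and Lce3f were above it in the Dab2-cKO libraries only. Of these only S100a9 was called, with 13.5 per kb (WT) and 28.0 (Dab2-cKO), so the size of its rise is uncertain.

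Single genes governed the summed levels. Together the 63 members summed to 189644 ± 18315 normalized counts (WT) against 37913 ± 793 (Dab2-cKO; SD, n = 3 each), a 5.00-fold difference. As shares of all counts these were 2.32% ± 0.123 and 0.346% ± 0.0130 (SD, n = 3 each). Without Tchh the sums were 27373 ± 2302 and 36395 ± 793, so the direction turned. As a share of all counts the sum without Tchh was 0.335% ± 0.0136 and 0.332% ± 0.0128, a difference below the spread between replicates. The 23 members called higher rose from 11541 ± 994 to 32137 ± 717 in sum, and the 14 called lower fell from 177588 ± 17340 to 5258 ± 56.5. These sums describe groups that were picked by the direction of the change.

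Along the chromosome, called members formed 9 alternating runs of the same direction. From S100a13, which rose, the order ran to 5 S100a genes that fell (S100a14 to S100a8) and then to S100a9 and Lor, which rose. The next run, Sprr2h to Ivl, held 5 genes that fell within 188 kb, and the one after it, Lce1a1 to Lce1m, held 15 genes that rose within 373 kb, Kprp among them. Crnn then fell, Flg2, Flg and Hrnr rose, Rptn, Tchh and Tchhl1 fell, and S100a11 and S100a10 rose. The starts of Hrnr and Tchh, the members with the largest rise and the largest fall, lie 123 kb apart, and those of Tchhl1 and S100a11 38.3 kb apart. Neighbours of 1 family share sequence and, for reads with several positions, may share counts, so these runs are a description.

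**Figure D4:**
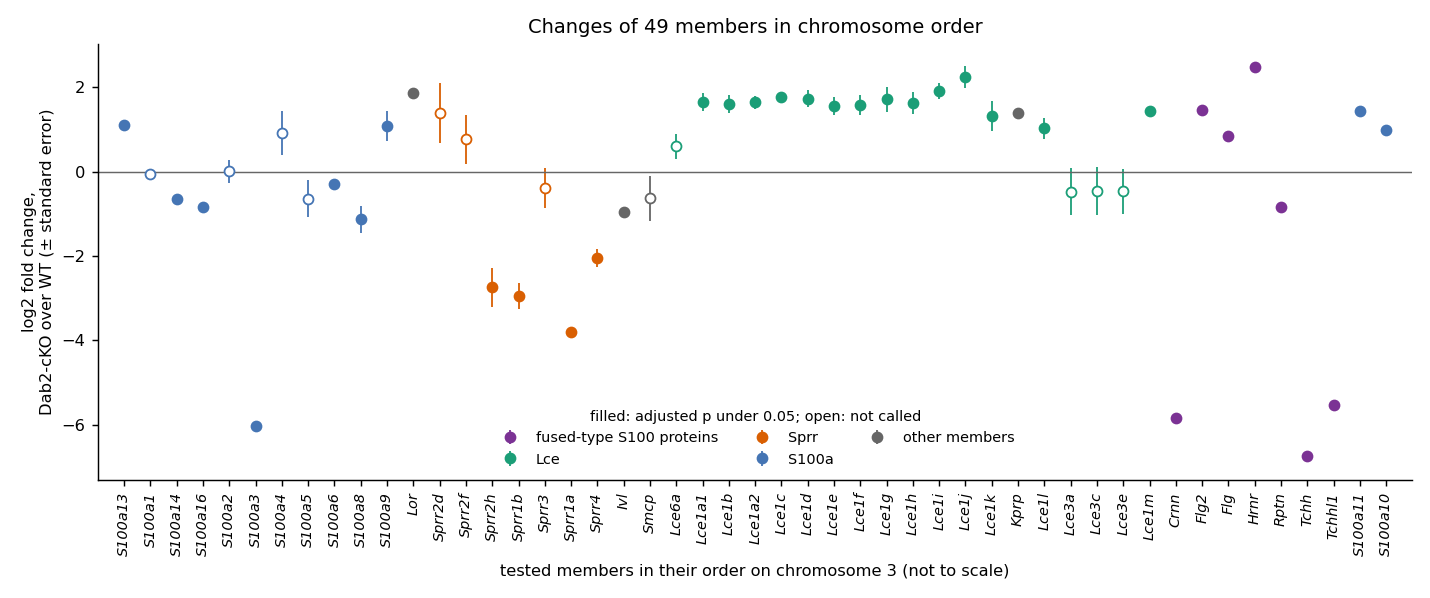
Log2 fold change (Dab2-cKO relative to WT) with its standard error for the 49 tested members in their order on chromosome 3, filled where called at an adjusted p under 0.05. The block of Lce1 genes and Kprp lies between 1.02 and 2.24, and Tchh, S100a3, Crnn and Tchhl1 lie below -5.

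Proteins that act with the members but are encoded elsewhere were counted from a list. Of 29 partners of the cornified envelope, 15 were higher and 7 lower, with a median log2 fold change of 0.37. Krt1 and Krt10, the keratin pair of suprabasal epidermis that filaggrin bundles, rose from 1271 ± 77.6 to 10111 ± 163 (SD, n = 3 each) and from 3985 to 20671 mean normalized counts. Dmkn and Sbsn, secreted proteins of the differentiating layers, rose as well, with log2 fold changes of 1.69 and 1.47, and the cytolinker gene Plec rose by 0.72. Ppl, the periplakin gene, was not called at 0.15 (adjusted p = 0.0984 by edgeR). The transglutaminases parted: Tgm3, which is strong in the hair follicle, fell from 935 to 169 on average (log2 fold change -2.47), Tgm1 from 505 to 258 (-0.96), and Tgm5 rose from 161 to 238 (0.57). The transglutaminases were named after their values were seen. By library size alone, 13 of the 29 partners were lower.

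Regulators of epidermal differentiation moved in both directions, with more of them lower. Of 30 listed, 10 were higher and 16 lower, with a median log2 fold change of -0.55. The largest fall was that of Dlx3 (-4.21), named after its value was seen. Dlx3 is also in the list of the inner root sheath, cuticle and hair shaft. Klf4, a factor required for the skin barrier, had normalized counts of 1392 ± 180 and 2700 ± 53.9 (SD, n = 3 each, WT before Dab2-cKO) and rose, with a log2 fold change of 0.96. Notch1, Smarca4, Trp63 and Grhl1 fell, with log2 fold changes of -0.88, -0.61, -0.53 and -1.08, and Maf, at -0.05, was not called (adjusted p = 0.674 by edgeR). Of 16 partners and receptors of S100 proteins, 15 were tested, 10 were higher and 1 was lower (S100pbp, named after its value was seen, a call that was lost without WT replicate 2 or WT replicate 3). Anxa2, the partner of S100a10, rose from 1701 ± 70.7 to 3475 ± 189 (log2 fold change 1.03), and Anxa1, Anxa5, Ahnak, Bsg and Cd36 rose by 0.26 to 1.85. Fibroblasts, endothelial cells or muscle also make these proteins. Most markers of those cells were higher too, and their part in these rises was not tested.

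Markers of other cell types moved with the members, and their part in the changes was not tested. All 26 markers of the inner root sheath, cuticle and hair shaft fell, with a median log2 fold change of -6.36, beside the falls of Tchh, Tchhl1, S100a3 and Crnn between -5.52 and -6.74. Krt71, Krt25 and Krt27, keratins of the inner root sheath, had log2 fold changes of -6.94, -6.98 and -6.58, and Krt83 and Krt81, keratins of the hair shaft, of -7.67 and -7.27. Of 18 markers of differentiated interfollicular epidermis, 10 were higher and 5 lower, with sums of 31039 to 35591 in the WT and 96133 to 96425 in the Dab2-cKO libraries, beside the rises of Hrnr, Lor and the Lce1 genes. Most of the sum in the Dab2-cKO libraries came from Krt77, Krt10 and Krt1, with means of 29862, 20671 and 10111 there. Krt77, the most abundant, rose by 1.91, and Dsg1a, at 0.03, was not called. The 5 that fell, named after their values were seen, were Dsc1 (-0.42), Casp14 (-0.39), Tgm1 (-0.96), Lypd3 (-0.75) and Mt4 (-2.34). Of the list, 13 of the 18 are also in the list of envelope partners. Of 13 markers of the infundibulum and sebaceous gland, 11 rose and 2 fell.

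Other lists moved too. All 12 proliferation markers fell, with a median of -1.57, and of 8 markers of the companion layer and inner bulge 1 rose and 4 fell. Of 17 bulge markers, 9 rose and 5 fell. All 10 fibroblast and all 8 endothelial markers rose, as did 8 of 9 muscle markers and 11 of 14 markers of macrophages, dendritic and other immune cells, while 7 of 8 melanocyte markers fell. No member list or marker list was tested as a set, and the 28.2% of all genes that were called apply to each count.

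**Figure D5:**
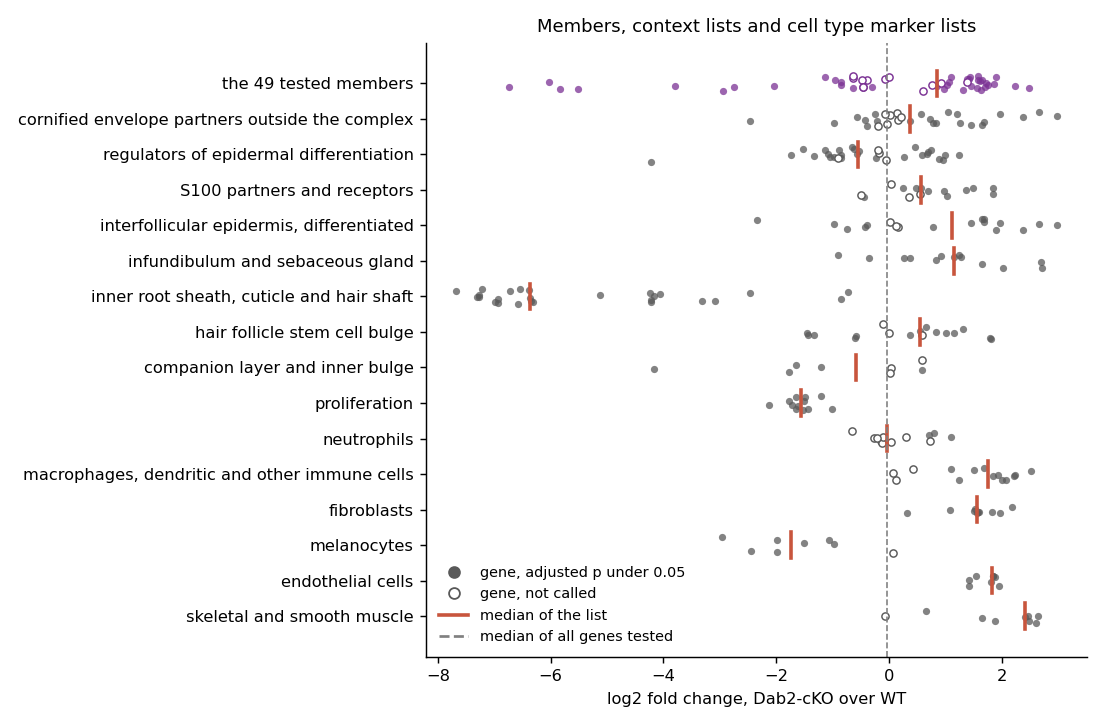
Log2 fold change (Dab2-cKO relative to WT) for the tested members, the 3 lists of partner and regulator genes and the 12 lists of cell type markers, 1 point per gene, filled where called at an adjusted p under 0.05, with a bar at each list's median. The dashed line is the median of all genes tested, -0.02, and the list of the inner root sheath, cuticle and hair shaft has its median at -6.36.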

How the data were processed

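Total RNA of sorted HFSCs was sequenced from 3 WT and 3 Dab2-cKO samples, grouped by their labels. Libraries were made from 5 ng RNA with a low-input stranded kit. The authors trimmed paired-end reads with fastp 0.23.4, aligned them to GRCm39 with HISAT2 2.2.1 and counted them per gene with featureCounts 2.0.6, and the deposited values are these counts without normalization. Which annotation release was used, whether strand was used and how multi-mapping reads were treated are not given in the sources used here. The authors also deposited a table of their own DESeq2 comparison, with fold changes and p-values, which was not used.

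From the counts, edgeR 4.0.16 in R 4.3.3 was used with its default expression filter, TMM scaling and the quasi-likelihood test with robust dispersion, over all 32149 genes tested, with Benjamini-Hochberg adjustment and calls at 0.05. A step that repeated the fit on simulated counts was checked first. TMM factors were 1.11 to 1.21 in the WT and 0.847 to 0.876 in the Dab2-cKO libraries. With 3 counts as the limit that a count of 0 allows, the floor per library lay between 2.56e-05% and 4.26e-05% of its counts, for counting error only. Positions, exon lengths and overlaps came from GENCODE M39, which held 56323 of the 56941 gene IDs. Exon windows of 150 bases were searched in GRCm39. Promoter windows (250 bases before to 50 after a start) came from RefSeq (GRCm38.p6), 50 of the 56 that matched GRCm39 once starting within 50 bases of a GENCODE transcript start, and identities from global alignment in Biopython 1.88.

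The members and lists were chosen with earlier results of these data known. Named were all fused-type S100, S100a and other single genes, the 8 most abundant Sprr and Lce genes, the 5 largest rises and falls among members with a mean of at least 20 normalized counts, and up to 6 of the most abundant genes a list, with exceptions stated. The 13 alternative fits were DESeq2 1.42.0, upper-quartile scaling, library size only, TMM without mitochondrial and the 100 most abundant genes, all genes with any count, a mean of 50 counts or more, a replicate block and each library left out. No library was left out otherwise.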

Additional observations from a re-analysis of the deposited data

How the results depend on the processing

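The counts of members called higher (23) and lower (14) stayed within 1.5 times under all 13 alternative fits. For 41 named genes, Dab2 among them, 501 of 517 values kept direction and side of the threshold, 36 genes in all their alternatives. Exceptions were few. S100a9 lost its call in 4, S100a1 and S100a5 gained one by library size alone and Sprr2d gained one without WT replicate 1, which made the count of Sprr genes called higher 1 in place of 0 (0 to 1 over the libraries left out). Lce6a, which is not among the 41, gained a call without WT replicate 1 too, which made the count of Lce genes called higher 15 in place of 14. S100a1, at -0.06, turned to 0.041 without WT replicate 2. S100a2, at 0.01, turned negative in 8 alternatives: -0.13 by upper quartile, -0.42 by library size, -0.021 with TMM without abundant genes, -0.026 without a filter, and it lay between -0.16 and 0.25 with libraries left out. With a mean count of at least 50, 2 Sprr genes were lower, since fewer were tested. By library size alone, 13 envelope partners were lower (7 in the report) and 4 S100 partners (1 in the report), and leaving out a library gave 0 (without WT replicate 2 or 3) to 1 of the latter.

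The log2 ratio of the summed normalized counts was -2.32 for all members. As a share of all counts it was -2.74 for all members, -3.24 for fused-type S100 genes, 1.06 for Lce, -3.53 for Sprr, -0.60 for S100a and 0.084 for the other members. In normalized counts without the most abundant member it was 0.41 for all members and 0.68 for fused-type S100 genes (both without Tchh, with the direction turned), -1.22 for Sprr without Sprr1a, -0.53 for S100a without S100a10 and 1.73 for the others without Ivl. As a share of all counts, the ratio (not log2) without Tchh was 0.993 for all members, so the direction did not turn there, and 1.20 for fused-type S100 genes.

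The replicate numbers did not pair the samples: deviations of same-numbered libraries correlated at 0.023, 0.012 and 0.0076. With the replicate block, 8967 of all genes were called in place of 9069, and 23 members were higher and 14 lower. Depth limits the Lce3 and Sprr2 genes most, where a member had few counts in every library.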

Other observations

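The stretch of chromosome 3 from the first to the last member held 60 other genes, of which 23 were tested, 4 rose and 6 fell, 43.5% against 28.2% of all genes. The genes named here were chosen after their values were seen. Prr9, a proline-rich gene between the Lor and Sprr regions, fell from 4566 ± 417 to 96.6 ± 5.17 normalized counts (SD, n = 3 each), with log2 fold change -5.56 (SE 0.09, adjusted p = 1.39e-55 by edgeR; SE is the standard error), in the range of Tchhl1 and Crnn. S100a7a, which the naming rule left out because of its last letter, fell from 211 ± 35.3 to 37.5 ± 2.67 (log2 fold change -2.49, SE 0.18). The gene listed as 2310050C09Rik, named Kplce in GENCODE, rose from 182 to 661 on average (log2 fold change 1.86, SE 0.10). The gene listed as 2310046K23Rik, named Sprr5 in GENCODE, rose from 185 to 231 on average (log2 fold change 0.32, SE 0.12, adjusted p = 0.0421 by edgeR), whereas no gene with an Sprr name in the count table was called higher. A long noncoding gene opposite Tchh, Gm56800 in GENCODE, fell from 102 ± 11.6 to 1.12 ± 1.10, and its reads cannot be told apart from those of Tchh where strand was not used.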
